A study of Homo sapiens with 18 samples.

Results

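Lysosomes are the acidic, membrane-bound compartments in which cells digest proteins, sugars, lipids and whole organelles. The genes described here are 42 of the 26668 genes in the expression table: 15 subunits of the V-ATPase, 7 proteins of the lysosomal membrane, and 20 soluble proteins of the lysosomal lumen. They were taken by symbol as a lysosomal module, and the module was chosen by a readout as well as by function, since the large rise of ATP6V0D2 in PANC-1 cells was part of the reason for selecting it. The PANC-1 knockdown contrast is therefore given as a description, with no p-value and with nothing read from its counts. Tests are given for the MIA PaCa-2 and PaTu 8988T cells, whose values are not named in that reason. The 42 genes were chosen with earlier results of these data known, so these tests are not fully independent of the choice.

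OFD1 encodes a protein of the centriole and of centriolar satellites that is needed for primary cilia. The study sequenced RNA to ask why depletion of OFD1 makes pancreatic cancer cells more sensitive to olaparib, a PARP inhibitor, and did so in 3 established human pancreatic ductal adenocarcinoma lines, PANC-1, MIA PaCa-2 and PaTu 8988T. Each line had 3 control libraries and 3 OFD1 knockdown libraries, so 18 in all. The knockdown libraries carry the label shOFD1 and came from cells collected 72 h after doxycycline, the drug that switches the short hairpin RNA on. The control libraries are titled shControl, with the genotype WT and no treatment, whereas the study's methods describe the same inducible shOFD1 lines kept in DMSO, and their collection time is not given for single libraries. Doxycycline was given to the knockdown cells only, so its own effect cannot be told apart from that of OFD1 loss. Replicates 2 and 3 of both PaTu 8988T groups bear other line names in the cell line field (PaTu 8989T and PaTu 8990T), and their titles were followed here. Nothing in the labels says that replicates were separate cultures, so p-values measure only the spread between these libraries.

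The V-ATPase is a rotary proton pump. Its cytosolic V1 sector hydrolyses ATP, its membrane-embedded V0 sector carries protons into the lumen, and the acid it produces is what lets lysosomal hydrolases work. Most of those hydrolases are made in the endoplasmic reticulum, tagged with a mannose phosphate group and delivered through endosomes, while heavily glycosylated proteins such as LAMP1 and LAMP2 line the membrane that holds them. The transcription factors TFEB, TFE3 and MITF (the MiT/TFE family) switch on many of these genes through an E-box in their promoters, and nutrient signalling through mTORC1 keeps these factors in the cytoplasm. In pancreatic ductal adenocarcinoma this family is known for keeping lysosomal gene expression high.

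Because that shared promoter element is a property that the choice of genes did not use, the promoters were read first. RefSeq windows (GRCh38.p14, 250 bases before to 50 bases after a start site) were at hand for 29 of the 42 genes. The E-box CACGTG, searched on both strands, was in a window of 11 of these 29 genes (37.9%) and of 8.77% of 27305 genes with a window. The form extended by 1 base, TCACGTG on either strand, which contains the E-box, was in 10 of the 29 (34.5%) against 4.49% of all genes, and the palindrome extended on both sides, TCACGTGA, was in 6 (20.7%) against 1.18%. The background genes were not matched for expression level, base content or number of windows, and no test was run on these shares. The windows below show 1 match for each of those 10 genes because they let the promoters of pump, membrane and luminal genes be compared letter by letter. They run 5′ to 3′ on the strand of the gene, and capitals mark the E-box with its matching flank.
ATP6V0B (chr1:43974911-43974936, plus strand): accggcgcaTCACGTGggcgagttag
ATP6V0D1 (chr16:67481201-67481226, minus strand): cccttatggTCACGTGAggcgcttgc
ATP6V1G1 (chr9:114587701-114587726, plus strand): gctgtgcggTCACGTGAcaacggggg
LAMP1 (chr13:113297201-113297226, plus strand): cccgcgggaTCACGTGAcgcccgggc
CLCN7 (chr16:1475060-1475085, minus strand): cgtcgctcaTCACGTGgccccgtcgc
MCOLN1 (chr19:7522573-7522598, plus strand): cagaggcggTCACGTGAggggctctg
CTSA (chr20:45891300-45891325, plus strand): cgccggagtTCACGTGActcgtacac
CTSD (chr11:1763959-1763984, minus strand): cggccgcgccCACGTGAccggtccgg
GAA (chr17:80101540-80101565, plus strand): tcccgccggTCACGTGAcccgcctct
NEU1 (chr6:31862932-31862957, minus strand): gctgcgtgaTCACGTGggaggagatg

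LAMP1 held 6 such matches in its window, and ATP6V0B, CLCN7, CTSA, GAA and MCOLN1 held 2 each. The E-box lay 25 to 59 bases before the start site in the printed windows of ATP6V0B, ATP6V0D1, ATP6V1G1, LAMP1, CLCN7, MCOLN1, CTSA, CTSD and GAA, and 126 bases before it in that of NEU1. A match is a description of the letters and not a measured binding site. The 13 genes without a window were ASAH1, ATP6V0D2, ATP6V0E1, ATP6V1A, ATP6V1B2, ATP6V1C1, ATP6V1H, CTSB, HEXA, LAMP2, MANBA, NAGLU and PSAP.

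OFD1, the targeted gene, was lower in the knockdown libraries of every line, and no knockdown library reached the level of a control library of its line. The unit is FPKM, the number of reads scaled for the length of the gene's transcripts and the depth of the library. In PANC-1 OFD1 was at 5.50, 5.12 and 5.67 FPKM in the controls and 2.80, 2.27 and 2.58 after knockdown, a log2 fold change of −1.07. In MIA PaCa-2 it was at 3.09, 2.27 and 3.20 FPKM against 1.76, 1.74 and 1.97, a log2 fold change of −0.61 ± 0.16 (SE; adjusted p = 0.0232 by limma). In PaTu 8988T the values were 2.14, 1.93 and 2.12 FPKM against 0.986, 0.894 and 0.854, with a log2 fold change of −1.10 ± 0.10 (adjusted p = 5.47e-05). The MIA PaCa-2 call rests on few libraries: without control replicate 2 the adjusted p was 8.76e-05, and without any of the other 5 libraries in turn it lay between 0.0604 and 0.0896.

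Libraries held between 32486479 and 39797537 reads, and differences between replicates were small except for 1 library. Replicate 2 of the MIA PaCa-2 controls differed from replicates 1 and 3 by a chi-square per degree of freedom of 121 and 124 over genes, against 3.02 to 11.7 for the other 16 replicate pairs. Many MIA PaCa-2 results are therefore given with and without it. A MIA PaCa-2 value given alone is from all libraries of that line and can depend on this one. The keratins KRT8 and KRT18, markers of epithelial carcinoma cells, were at 316 FPKM or more in every library of the 3 lines. Of the 6 epithelial markers listed, 6 had a group mean of at least 1 FPKM in PANC-1. Only 3 did so in MIA PaCa-2 and 3 in PaTu 8988T, with and without knockdown. Of the 6, 1 was at 0 in every PaTu 8988T knockdown library. CDH1 and EPCAM, which mark a well-kept epithelial state, were each below 0.1 FPKM in every MIA PaCa-2 library, and the summed 4 endothelial markers stayed below 0.32 FPKM everywhere. In bulk RNA a lower level in all cells and fewer cells with an unaltered level cannot be told apart.

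Of the 42 lysosomal genes, 42 passed the filter (a mean of at least 1 FPKM over the libraries of a fit) in PANC-1 and 41 in each of the other lines, where ATP6V0D2 did not. The median of the genes' mean control levels was 44.9 FPKM in PANC-1, 46.0 FPKM in MIA PaCa-2 and 39.9 FPKM in PaTu 8988T. Their highest control mean belonged to CTSD in PANC-1 (917 FPKM), an aspartic protease, and to PSAP, the precursor of the saposins that present lipids to hydrolases, in MIA PaCa-2 (307 FPKM) and PaTu 8988T (420.4 FPKM). After ATP6V0D2, the lowest was the glycosidase gene MANBA, at 4.97, 2.19 and 2.73 FPKM in the 3 lines in that order.

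The knockdown moved most of these genes by well under 2-fold. In PANC-1, where the module was selected, 19 of 42 had higher and 18 had lower values at an adjusted p below 0.05, beside 40.1% higher and 32.2% lower among all 10902 genes, and nothing is read from these counts. Past a 2-fold difference there were 1 higher (ATP6V0D2; 1.75% of all genes) and 1 lower (CTSZ; 4.84%). In PaTu 8988T, 12 of 41 rose and 17 fell, against 20.9% and 18.5% of 10698 genes, and none of the 41 passed 2-fold in either direction (0.159% of all genes higher, 0.841% lower). In MIA PaCa-2, 8 of 41 rose and 13 fell, against 18.7% and 21.7% of 10758 genes, and 0 rose and 2 fell past 2-fold (4.07% and 3.68% of all genes). As counted, the share of the 41 called in either direction in PaTu 8988T was above the background. In MIA PaCa-2 the share that rose (19.5%) was close to it and the share that fell (31.7%) above it. No test was run on these shares, and the background genes were not matched for expression level, so nothing further is read from them.

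Leaving out control replicate 2 of MIA PaCa-2 raised these counts for the whole table as well as for the lysosomal genes. Then 14 rose and 20 fell, against 35.1% and 40% of all genes, with 0 higher and 2 lower past 2-fold (4.03% and 3.88%). The 2 were not the same genes: CTSZ and ATP6V0B with all libraries, and CTSZ and ATP6V1C1 (−1.02) without control replicate 2, where ATP6V0B was at −0.91. Without each knockdown replicate in turn the number called was 11 to 13 instead of 21. Leaving out 1 library at a time cost 11 of the 21 MIA PaCa-2 calls their significance at least once: ATP6V0B, ATP6V0C, ATP6V0E1, ATP6V1D, ATP6V1H, CD63, GUSB, HEXA, LAMP1, MCOLN1 and PSAP. In PaTu 8988T this happened to 9 of the 29, namely ASAH1, ATP6V0C, ATP6V0E1, ATP6V1C1, ATP6V1E1, CTSD, CTSZ, GRN and SMPD1, each of which had changed by at most 0.29 on the log2 scale. None of these values changed sign. The median log2 fold change of the lysosomal genes stayed near 0 and slightly below that of all genes: −0.01 against 0.06 in PANC-1, −0.13 against −0.03 in MIA PaCa-2 (−0.08 against −0.03 without control replicate 2), and −0.05 against 0.03 in PaTu 8988T.

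**Figure D1:**
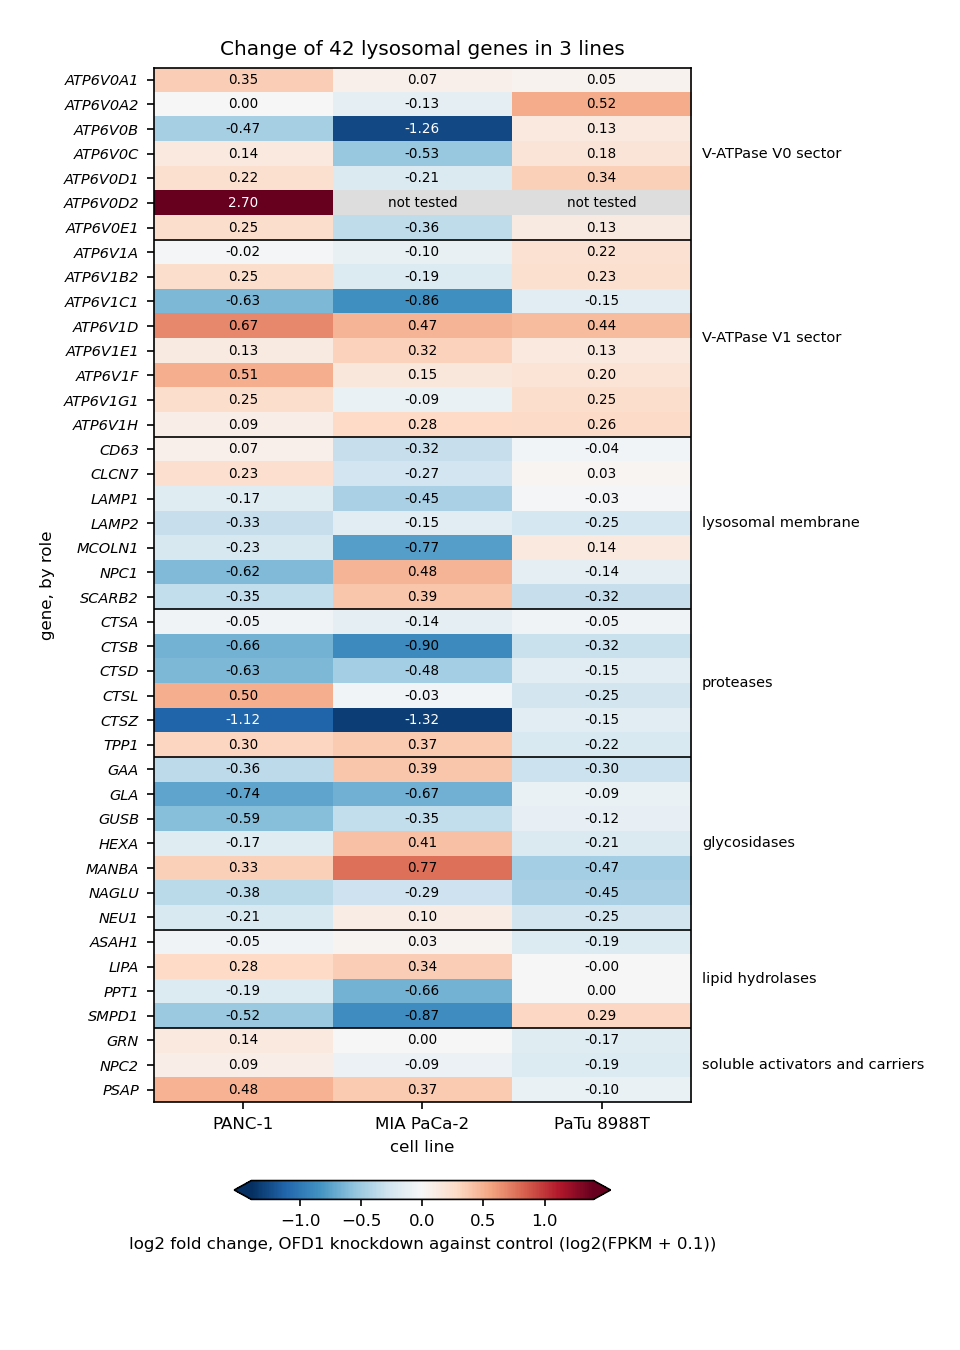
Heat map of the log2 fold change, OFD1 knockdown against control on log2(FPKM + 0.1), for 42 lysosomal genes (rows, grouped by role) in 3 lines (columns), with the value written in each cell and grey where the gene was below the filter. V-ATPase rows of PaTu 8988T are above 0 except ATP6V1C1 (−0.15), the rows of CTSB and CTSZ are below 0 in every column, and the colour scale is cut at 1.4, so that ATP6V0D2 in PANC-1 (2.70) lies beyond it.

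ATP6V0D2 encodes the d2 form of the V0 subunit that couples the membrane ring to the stalk of the pump, and is best known from osteoclasts and macrophages. The gene lies on chromosome 8 at 85987323 to 86154228 on the plus strand (GRCh38, GENCODE). In PANC-1 it was at 1.41, 1.73 and 2.80 FPKM in the controls and at 13.7, 12.7 and 12.2 FPKM after knockdown. That is a log2 fold change of 2.70 (6.48-fold on the log2(FPKM + 0.1) scale), ranked 4 of 10902 genes by the size of its rise, and it is the value for which the module was selected. In MIA PaCa-2, whose values are not named in the reason for the choice, it was at 0.183, 0.329 and 0.497 FPKM in the controls (17 to 46 reads). After knockdown it was at 0.989, 1.12 and 1.05 FPKM (91 to 101 reads). All 3 knockdown libraries were above all 3 controls there, and a fit with no filter on low values gave a log2 fold change of 1.47 ± 0.29 (adjusted p = 0.0183 by limma). In PaTu 8988T it had 1 read in 1 control library and 0 in the other 5, so it was hardly detected and no change could be measured. ATP6V0D1, which encodes the widely expressed form of the same subunit, was at 32.3 to 38.2 FPKM in PANC-1, 64.2 to 92.8 FPKM in MIA PaCa-2 and 56.5 to 78.6 FPKM in PaTu 8988T.

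Markers of the cell types in which ATP6V0D2 is best known were low and moved differently in the lines where it was measured. The 5 osteoclast markers in the table summed to 5.91 to 5.97 FPKM in PANC-1 controls and 4.52 to 5.09 FPKM after knockdown, nearly all of it NFATC1. In MIA PaCa-2 the same sum was 1.04 to 1.37 FPKM in controls and 2.27 to 2.44 FPKM after knockdown. DCSTAMP, a gene for osteoclast fusion, was listed at 0 in all 18 libraries. Of 8 macrophage and monocyte markers, CD163 was listed at 0 in every PANC-1 and MIA PaCa-2 library, and the MIA PaCa-2 sum (2.49 to 4.71 FPKM in controls, 6.09 to 6.49 after knockdown) came mostly from PTPRC, while in PANC-1 it was 1.19 to 1.82 FPKM in controls and 0.552 to 1.20 after knockdown. The 6 fibroblast markers, mostly COL1A2 and COL3A1, summed to 158 to 188 FPKM in MIA PaCa-2 controls and 234 to 236 FPKM after knockdown. The part of such markers in the ATP6V0D2 values was not tested.

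**Figure D2:**
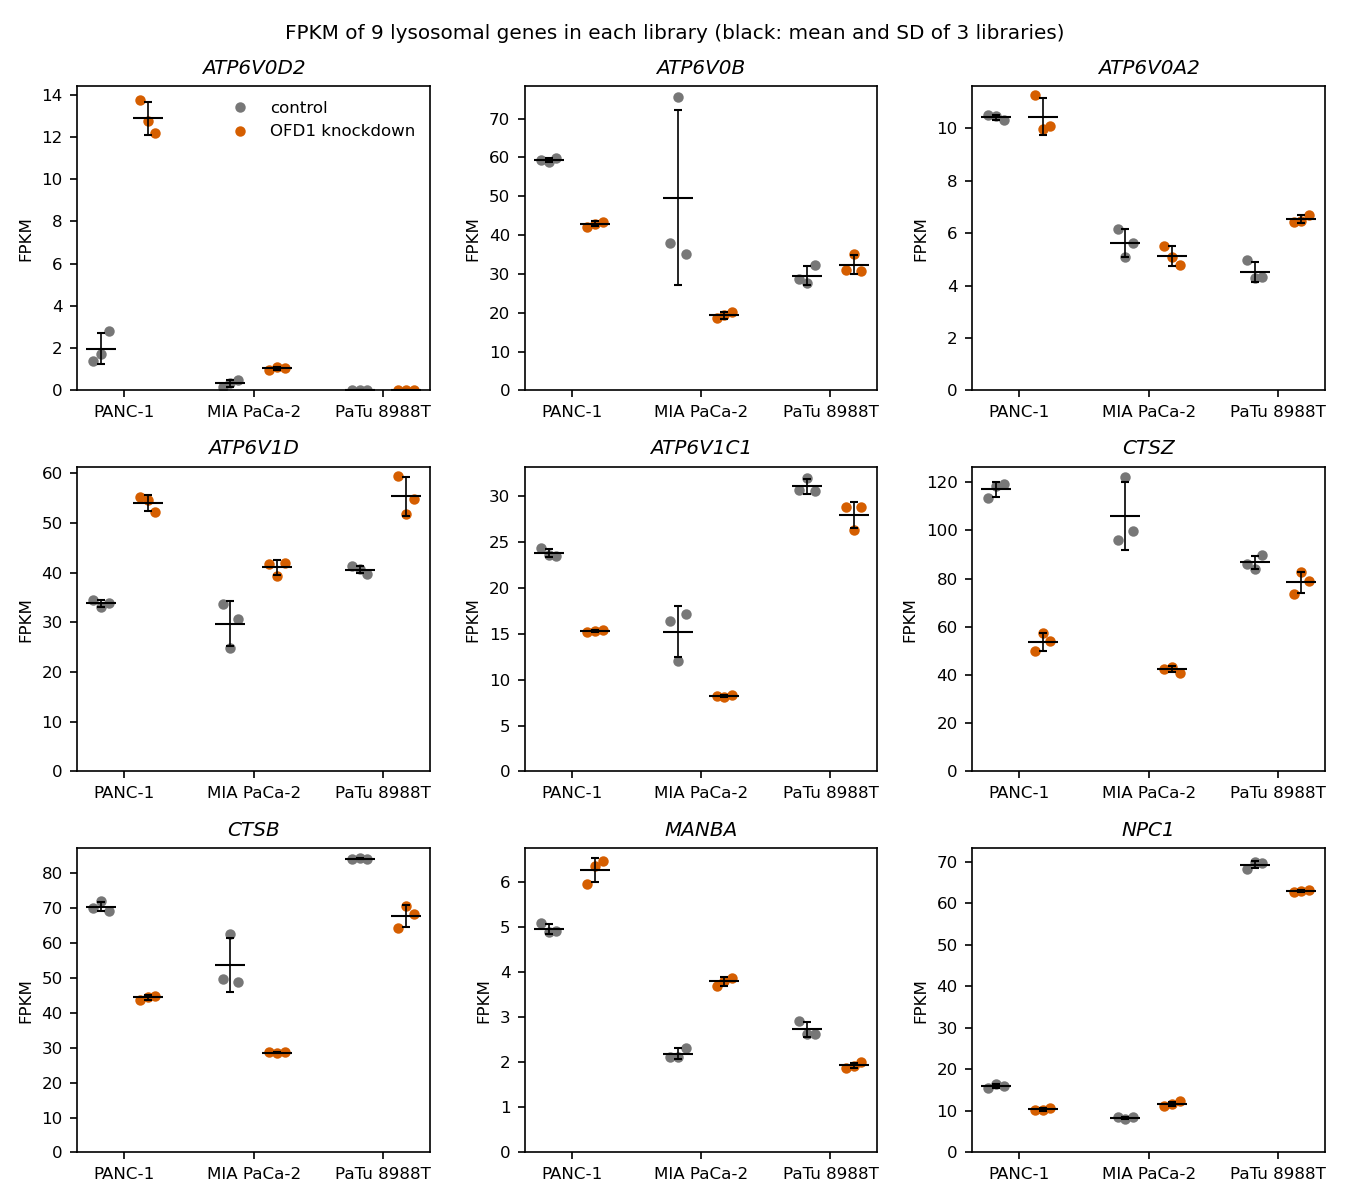
FPKM of 9 lysosomal genes in each of the 18 libraries (y axis, linear from 0), by line (x axis), with grey points for controls, orange points for OFD1 knockdown, and black marks for the mean and SD of 3 libraries. ATP6V0D2 in PANC-1 goes from at most 2.80 to at least 12.2 FPKM, ATP6V1D is above its controls in all 3 lines, CTSZ and CTSB are below theirs, and MANBA and NPC1 differ in direction between lines; the high MIA PaCa-2 control of ATP6V0B (75.6 FPKM) is replicate 2.

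The other V0 subunits form the proton path. In PaTu 8988T 4 of 6 rose and none fell, beside 20.9% and 18.5% of all genes, with a median log2 fold change of 0.16 against 0.03 for all genes. ATP6V0A2, the a subunit form found mainly in the Golgi, rose most of the 41 genes in that line, from 4.96, 4.27 and 4.32 FPKM to 6.44, 6.45 and 6.70 FPKM (log2 fold change 0.52 ± 0.07, adjusted p = 0.000441 by limma). The groups did not overlap there, whereas in PANC-1 its log2 fold change was 0.00 and in MIA PaCa-2 −0.13 (adjusted p = 0.391; −0.20 with adjusted p = 0.0384 without control replicate 2). ATP6V0D1 rose by 0.34 on the log2 scale in PaTu 8988T (adjusted p = 0.000813), ATP6V0C, the proteolipid of the rotating ring, by 0.18 (adjusted p = 0.0185) and ATP6V0E1, a small accessory subunit of the sector, by 0.13 (adjusted p = 0.0187). ATP6V0A1, a widely used a subunit form, was at 0.05 there (adjusted p = 0.471), at 0.07 in MIA PaCa-2 (adjusted p = 0.542) and at 0.35 in PANC-1. In PANC-1, ATP6V0C, ATP6V0D1 and ATP6V0E1 also had positive values (0.14, 0.22 and 0.25).

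In MIA PaCa-2 none of the 6 V0 genes rose and 3 fell, beside 18.7% and 21.7% of all genes, with a median of −0.28 against −0.03. Without control replicate 2 none rose and 4 fell, beside 35.1% and 40% of all genes, with a median of −0.25. ATP6V0B, which encodes another proteolipid of the ring, was at 37.9, 75.6 and 35.3 FPKM in the controls and 18.5, 19.4 and 20.3 FPKM after knockdown. Its log2 fold change was −1.26 ± 0.28 (adjusted p = 0.0126 by limma), and −0.91 without control replicate 2 (adjusted p = 6.62e-07), the library with the high value. Without knockdown replicate 1 the adjusted p was 0.0514. The gene lies on chromosome 1 at 43974487 to 43978295 (plus strand), its window printed above has an E-box 39 bases before the start site, and in PANC-1 it was also lower, at 59.4, 58.8 and 59.7 FPKM against 42.2, 43.0 and 43.5 FPKM. In PaTu 8988T it was at 28.6, 27.7 and 32.4 FPKM against 31.1, 35.1 and 30.9 FPKM, which overlap (log2 fold change 0.13, adjusted p = 0.154). ATP6V0C fell in MIA PaCa-2 by 0.53 on the log2 scale (adjusted p = 0.0320; −0.35 without control replicate 2) and ATP6V0E1 by 0.36 (adjusted p = 0.00923), while ATP6V0D1 was at −0.21 (adjusted p = 0.257; −0.05 without control replicate 2).

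The V1 subunits make up the ATP-hydrolysing head and its stalks. In PaTu 8988T 7 of 8 rose and 1 fell, beside 20.9% and 18.5% of all genes, with a median of 0.22 against 0.03 for all genes. ATP6V1D, part of the central rotor, was the V1 subunit that went furthest up in each line. It read 34.6, 33.2 and 33.8 FPKM in PANC-1 controls and 55.3, 54.6 and 52.3 FPKM after knockdown (log2 fold change 0.67). The MIA PaCa-2 values were 33.7, 24.8 and 30.8 FPKM against 41.8, 39.3 and 42.1 FPKM (0.47 ± 0.12, adjusted p = 0.0221 by limma), and those of PaTu 8988T were 41.4, 40.7 and 39.8 FPKM against 59.6, 51.8 and 54.8 FPKM (0.44 ± 0.05, adjusted p = 0.00018). The groups did not overlap in any of the lines, and the rises in MIA PaCa-2 and PaTu 8988T differed by 0.03 on the log2 scale (adjusted p = 0.881 by limma). Without control replicate 2 the MIA PaCa-2 rise was 0.35, and the change there minus that in PaTu 8988T was −0.10 (adjusted p = 0.286 by limma). ATP6V1E1 and ATP6V1H, a stalk subunit and a regulatory subunit, rose in both tested lines as well, by 0.32 (adjusted p = 0.00763) and 0.28 (adjusted p = 0.0313) in MIA PaCa-2 and by 0.13 (adjusted p = 0.0205) and 0.26 (adjusted p = 0.000441) in PaTu 8988T.

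ATP6V1C1, whose product holds the head to the membrane sector and is released when the pump comes apart, was the only V1 subunit that fell in either tested line with all libraries in the fit. Its FPKM were 24.3, 23.6 and 23.4 in PANC-1 controls against 15.1, 15.3 and 15.4 after knockdown (log2 fold change −0.63). In MIA PaCa-2 they were 16.4, 12.05 and 17.2 against 8.26, 8.08 and 8.33 (−0.86 ± 0.15, adjusted p = 0.00463 by limma; −1.02 without control replicate 2), and in PaTu 8988T 30.6, 32.0 and 30.5 against 28.8, 26.3 and 28.8 (−0.15 ± 0.05, adjusted p = 0.0290). Every knockdown library was below every control library of its line, and the fall was deeper in MIA PaCa-2 than in PaTu 8988T by 0.71 on the log2 scale (adjusted p = 0.00354). The remaining V1 genes, ATP6V1A and ATP6V1B2 (catalytic and regulatory subunits of the head), ATP6V1F (rotor) and ATP6V1G1 (stalk), rose in PaTu 8988T by 0.20 to 0.25 on the log2 scale, with adjusted p between 0.000898 and 0.00916. None of these passed in MIA PaCa-2, where ATP6V1A was at −0.10, ATP6V1B2 at −0.19 (adjusted p = 0.0537), ATP6V1F at 0.15 and ATP6V1G1 at −0.09; without control replicate 2 ATP6V1F rose by 0.29 and the other 3 fell by 0.17 to 0.28. In PANC-1 ATP6V1F was at 0.51, ATP6V1B2 and ATP6V1G1 at 0.25, ATP6V1E1 at 0.13, ATP6V1H at 0.09 and ATP6V1A at −0.02.

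Over the 15 pump genes together, 13 of 14 measured in PaTu 8988T had positive log2 fold changes, of which 11 passed the test and 1 gene, ATP6V1C1, fell, beside 20.9% of all genes risen and 18.5% fallen. The corresponding counts in MIA PaCa-2 were 5 positive of 14, with 3 risen and 4 fallen beside 18.7% and 21.7% of all genes (4 and 8 beside 35.1% and 40% without control replicate 2). In PANC-1 12 of 15 were positive, ATP6V0D2 among them, and nothing is read from this count. Of all genes tested, 54.8% were above 0 in PaTu 8988T, 47.8% in MIA PaCa-2 and 55.6% in PANC-1. Among the 27 other lysosomal genes, 4 were positive in PaTu 8988T, with 1 risen and 16 fallen, and 11 in MIA PaCa-2, with 5 risen and 9 fallen (10 and 12 without control replicate 2).

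The lysosomal membrane proteins were LAMP1 and LAMP2, the structural coat, CD63, a tetraspanin, SCARB2, the receptor that carries glucocerebrosidase, NPC1, the exporter of cholesterol, MCOLN1, a calcium channel, and CLCN7, a chloride and proton exchanger. NPC1 went in different directions in the lines. It rose in MIA PaCa-2 from 8.53, 8.11 and 8.47 FPKM to 11.1, 11.7 and 12.3 FPKM (log2 fold change 0.48 ± 0.08, adjusted p = 0.0056 by limma). It fell in PaTu 8988T from 68.3, 70.1 and 69.6 FPKM to 62.8, 63.1 and 63.3 FPKM (−0.14 ± 0.03, adjusted p = 0.00929), and in PANC-1 it was at 15.5, 16.6 and 15.9 FPKM against 10.2, 10.3 and 10.7 FPKM (−0.62). The groups did not overlap in any line, and the change in MIA PaCa-2 minus that in PaTu 8988T was 0.61 (adjusted p = 5.59e-05).

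SCARB2 also differed in sign between lines. It fell in PaTu 8988T by 0.32 on the log2 scale (adjusted p = 0.000408 by limma), was at −0.35 in PANC-1, and in MIA PaCa-2 was at 0.39 (adjusted p = 0.0941; 0.20 with adjusted p = 0.000616 without control replicate 2), with a difference between the tested lines of 0.71 (adjusted p = 0.00652). LAMP2 fell in PaTu 8988T by 0.25 (adjusted p = 0.0102) and was at −0.15 in MIA PaCa-2 (adjusted p = 0.560; −0.37 with adjusted p = 2.2e-05 without control replicate 2). LAMP1 fell in MIA PaCa-2 by 0.45 (adjusted p = 0.0116 by limma), was at −0.36 there without control replicate 2, and was at −0.03 in PaTu 8988T. In PANC-1 these coat proteins were at −0.17 (LAMP1) and −0.33 (LAMP2). CD63 and MCOLN1 fell in MIA PaCa-2, by 0.32 (adjusted p = 0.0125) and 0.77 (adjusted p = 0.0198; −0.55 without control replicate 2), and were at −0.04 and 0.14 in PaTu 8988T, neither past the test. CLCN7 passed in neither tested line (−0.27 in MIA PaCa-2, or −0.06 without control replicate 2, and 0.03 in PaTu 8988T), and in PANC-1 CD63 was at 0.07, CLCN7 at 0.23 and MCOLN1 at −0.23.

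Among the proteases, the cathepsins CTSZ and CTSB fell in both tested lines and were lower in PANC-1 too. CTSZ, a cysteine carboxypeptidase, had the lowest log2 fold change of the lysosomal genes in PANC-1 and in MIA PaCa-2. It was at 113, 118 and 119 FPKM in PANC-1 controls and at 50.1, 57.5 and 54.0 FPKM after knockdown (−1.12). In MIA PaCa-2 it was at 96.0, 122 and 99.8 FPKM against 42.6, 43.3 and 40.9 FPKM (−1.32 ± 0.10, adjusted p = 0.000317 by limma; −1.21 without control replicate 2). In PaTu 8988T the levels were 86.2, 84.2 and 89.8 FPKM against 73.7, 82.7 and 79.0 FPKM (−0.15 ± 0.05, adjusted p = 0.0357). No knockdown library overlapped the controls, although the small PaTu 8988T fall lost its call without any of 5 of the 6 libraries, and the fall was deeper in MIA PaCa-2 by 1.17 on the log2 scale (SE 0.12, adjusted p = 1.94e-05). The gene lies on chromosome 20 at 58995185 to 59007247 on the minus strand.

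CTSB, a cysteine protease that is often abundant in carcinoma, was at 70.1, 72.0 and 69.3 FPKM in PANC-1 controls and 43.6, 44.6 and 45.0 FPKM after knockdown (log2 fold change −0.66). MIA PaCa-2 controls held 49.6, 62.5 and 49.0 FPKM and knockdown libraries 28.7, 28.5 and 28.7 FPKM (−0.90 ± 0.11, adjusted p = 0.00136 by limma, or −0.78 without control replicate 2). In PaTu 8988T they were 84.1, 84.5 and 84.2 FPKM against 64.4, 70.5 and 68.3 FPKM (−0.32 ± 0.04, adjusted p = 0.00034). The groups were separate in each line, and the fall was deeper in MIA PaCa-2 by 0.58 on the log2 scale (adjusted p = 0.00198). CTSD fell in PaTu 8988T by 0.15 (adjusted p = 0.0343), was at −0.48 in MIA PaCa-2 (adjusted p = 0.0655; −0.26 with adjusted p = 3.18e-06 without control replicate 2), and was at −0.63 in PANC-1, from 922, 916 and 913 FPKM to 599, 598 and 584 FPKM.

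The other proteases moved differently. TPP1, a tripeptidyl peptidase, rose in MIA PaCa-2 by 0.37 (adjusted p = 0.00464 by limma), fell in PaTu 8988T by 0.22 (adjusted p = 0.00451) and was at 0.30 in PANC-1, and its changes in the tested lines differed by 0.58 (adjusted p = 5.84e-05). CTSL, a cysteine endopeptidase, fell in PaTu 8988T by 0.25 (adjusted p = 0.000364) and was at −0.03 in MIA PaCa-2 and 0.50 in PANC-1. CTSA, a serine carboxypeptidase that also protects NEU1, passed in neither tested line (−0.14 and −0.05; −0.08 with adjusted p = 0.0283 in MIA PaCa-2 without control replicate 2) and was at −0.05 in PANC-1.

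The glycosidases remove sugars from glycoproteins, glycolipids and glycogen. In PaTu 8988T 5 of 7 fell and none rose, beside 18.5% and 20.9% of all genes, with a median of −0.25 against 0.03 for all genes. In MIA PaCa-2 2 rose and 2 fell, beside 18.7% and 21.7% of all genes (4 and 2, beside 35.1% and 40%, without control replicate 2). MANBA, the beta-mannosidase, had the highest log2 fold change of the lysosomal genes in MIA PaCa-2 and the lowest in PaTu 8988T. In MIA PaCa-2 it was at 2.12, 2.12 and 2.33 FPKM in controls and 3.70, 3.82 and 3.88 FPKM after knockdown (0.77 ± 0.10, adjusted p = 0.00184 by limma). In PaTu 8988T it was at 2.93, 2.64 and 2.63 FPKM against 1.88, 1.93 and 2.002 FPKM (−0.47 ± 0.08, adjusted p = 0.00182), and in PANC-1 at 5.09, 4.90 and 4.92 FPKM against 5.97, 6.37 and 6.47 FPKM (0.33). These groups did not overlap in any line, and each value rests on 515 reads or more. The changes in MIA PaCa-2 and PaTu 8988T differed by 1.24 on the log2 scale (SE 0.11, adjusted p = 9.25e-06).

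NAGLU, an enzyme of heparan sulphate breakdown, was the next lowest in PaTu 8988T, from 5.22, 5.71 and 5.58 FPKM to 3.65, 4.06 and 4.30 FPKM (log2 fold change −0.45 ± 0.08, adjusted p = 0.00155 by limma). It was at 5.38, 8.44 and 5.29 FPKM against 5.11, 4.89 and 5.17 FPKM in MIA PaCa-2 (−0.29, adjusted p = 0.253), where the high control is replicate 2, and at 5.18, 5.72 and 5.62 FPKM against 3.80, 4.79 and 4.07 FPKM in PANC-1 (−0.38). GLA, the alpha-galactosidase lacking in Fabry disease, was next to CTSZ at the low end in PANC-1, with 62.4, 63.4 and 61.7 FPKM in controls and 37.3, 37.0 and 38.0 FPKM after knockdown (−0.74). It fell in MIA PaCa-2 as well, from 65.0, 66.4 and 65.7 FPKM to 43.0, 38.8 and 42.03 FPKM (−0.67 ± 0.07, adjusted p = 0.000801). In PaTu 8988T it did not pass, with 33.8, 34.5 and 34.4 FPKM against 30.5, 34.8 and 31.4 FPKM (−0.09, adjusted p = 0.193), and the difference between the tested lines was −0.58 (adjusted p = 0.000237).

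HEXA, the alpha subunit of beta-hexosaminidase, rose in MIA PaCa-2 by 0.41 (adjusted p = 0.0103 by limma) and fell in PaTu 8988T by 0.21 (adjusted p = 0.00625), and was at −0.17 in PANC-1. GUSB, the beta-glucuronidase, fell in MIA PaCa-2 by 0.35 (adjusted p = 0.0182) and was at −0.12 in PaTu 8988T and −0.59 in PANC-1. GAA, the acid alpha-glucosidase of glycogen, and NEU1, a sialidase, both with an E-box in the windows printed above, fell in PaTu 8988T by 0.30 (adjusted p = 0.00115) and 0.25 (adjusted p = 0.00355). In MIA PaCa-2 they were at 0.39 and 0.10, neither past the test with all libraries; both rose without control replicate 2, by 0.62 (adjusted p = 2.44e-06) and 0.25 (adjusted p = 0.000508). In PANC-1 they were at −0.36 and −0.21.

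Of the 4 lipid hydrolases, SMPD1, the acid sphingomyelinase, differed most between lines. It fell in MIA PaCa-2 from 10.3, 14.1 and 10.0 FPKM to 6.08, 6.01 and 6.31 FPKM (log2 fold change −0.87 ± 0.15, adjusted p = 0.00448 by limma, or −0.72 without control replicate 2). It rose in PaTu 8988T from 4.67, 4.48 and 4.82 FPKM to 5.19, 5.62 and 6.41 FPKM (0.29 ± 0.08, adjusted p = 0.0182), as the only soluble lysosomal gene called higher there, and was at 33.2, 32.4 and 31.2 FPKM against 22.1, 22.3 and 23.3 FPKM in PANC-1 (−0.52). The groups were separate in each line, and the MIA PaCa-2 change minus the PaTu 8988T change was −1.16 (SE 0.17, adjusted p = 0.000312). PPT1, the palmitoyl-protein thioesterase, fell in MIA PaCa-2 by 0.66 (adjusted p = 0.00109) and was at 0.00 in PaTu 8988T and −0.19 in PANC-1. ASAH1, the acid ceramidase, fell in PaTu 8988T by 0.19 (adjusted p = 0.0190) and was at 0.03 in MIA PaCa-2 and −0.05 in PANC-1. LIPA, the acid lipase for cholesteryl esters, passed in neither tested line with all libraries (0.34 and 0.00; 0.11 in MIA PaCa-2 without control replicate 2, adjusted p = 0.00154) and was at 0.28 in PANC-1.

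PSAP, GRN and NPC2 are not enzymes but help them: PSAP gives the saposins, GRN encodes progranulin, and NPC2 hands cholesterol to NPC1. PSAP rose in MIA PaCa-2 from 277, 368 and 276 FPKM to 394, 391 and 394 FPKM (log2 fold change 0.37 ± 0.12, adjusted p = 0.0421 by limma; 0.51 without control replicate 2). It was at −0.10 in PaTu 8988T (adjusted p = 0.0550) and 0.48 in PANC-1, and the changes in the tested lines differed by 0.47 (adjusted p = 0.0117). GRN and NPC2 fell in PaTu 8988T by 0.17 (adjusted p = 0.0290) and 0.19 (adjusted p = 0.00355). They were at 0.00 and −0.09 in MIA PaCa-2, neither past the test (GRN rose by 0.19 without control replicate 2, adjusted p = 0.00011), and at 0.14 and 0.09 in PANC-1.

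The comparison of MIA PaCa-2 with PaTu 8988T asks which genes changed differently after OFD1 knockdown in these lines, and it uses no shared libraries. The extent of the knockdown differed as well, with an OFD1 log2 fold change of −0.61 in MIA PaCa-2 and −1.10 in PaTu 8988T. Line, preparation and extent of knockdown cannot be told apart here. The change differed for 24 of 41 lysosomal genes: 9 were higher in MIA PaCa-2 than in PaTu 8988T and 15 lower, beside 20.1% and 24.4% of 10936 genes (13 and 17, beside 30.4% and 36.5%, without control replicate 2). By more than 2-fold, 1 was higher (MANBA; 6.05% of all genes) and 3 were lower (ATP6V0B, CTSZ and SMPD1; 4.18%). ATP6V0B had the largest difference, −1.39 on the log2 scale (SE 0.31, adjusted p = 0.00422 by limma), which was −1.04 without control replicate 2 (adjusted p = 1.57e-06). Over the V0 genes, 5 of 6 had a lower change in MIA PaCa-2 and none a higher one, with a median difference of −0.60.

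Of the lysosomal genes called in both tested lines, 7 went in opposite directions and 6 in the same one. The 7 in opposite directions were ATP6V0C, ATP6V0E1, HEXA, MANBA, NPC1, SMPD1 and TPP1, 17.1% of 41 beside 10.6% of the 9647 genes in both fits. The 3 that rose in both were ATP6V1D, ATP6V1E1 and ATP6V1H, 7.32% of 41 beside 3.33% of all genes (37.5% of the lysosomal genes risen in MIA PaCa-2 and 25% of those risen in PaTu 8988T). The 3 that fell in both were ATP6V1C1, CTSB and CTSZ, 7.32% of 41 beside 4.05% of all genes (23.1% and 17.6% of those fallen in MIA PaCa-2 and PaTu 8988T). These pairs of lines share no control, but no test was run on the overlap.

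**Figure D3:**
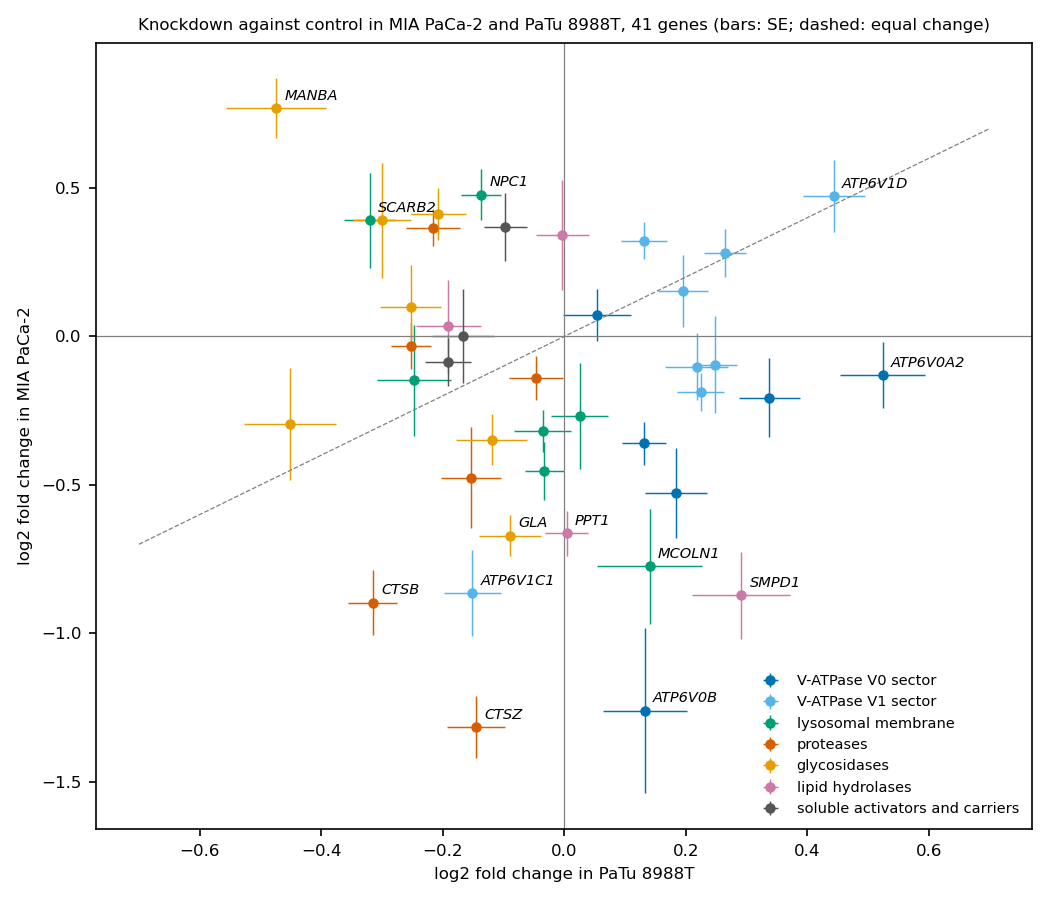
Log2 fold change in MIA PaCa-2 (y axis) against that in PaTu 8988T (x axis) for 41 lysosomal genes, coloured by role, with bars for the SE and a dashed line where the changes are equal. V-ATPase points lie to the right of 0 except ATP6V1C1, MANBA stands alone at the upper left (0.77 and −0.47), and ATP6V0B, SMPD1 and CTSZ are the points furthest below the dashed line.

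**Figure D4:**
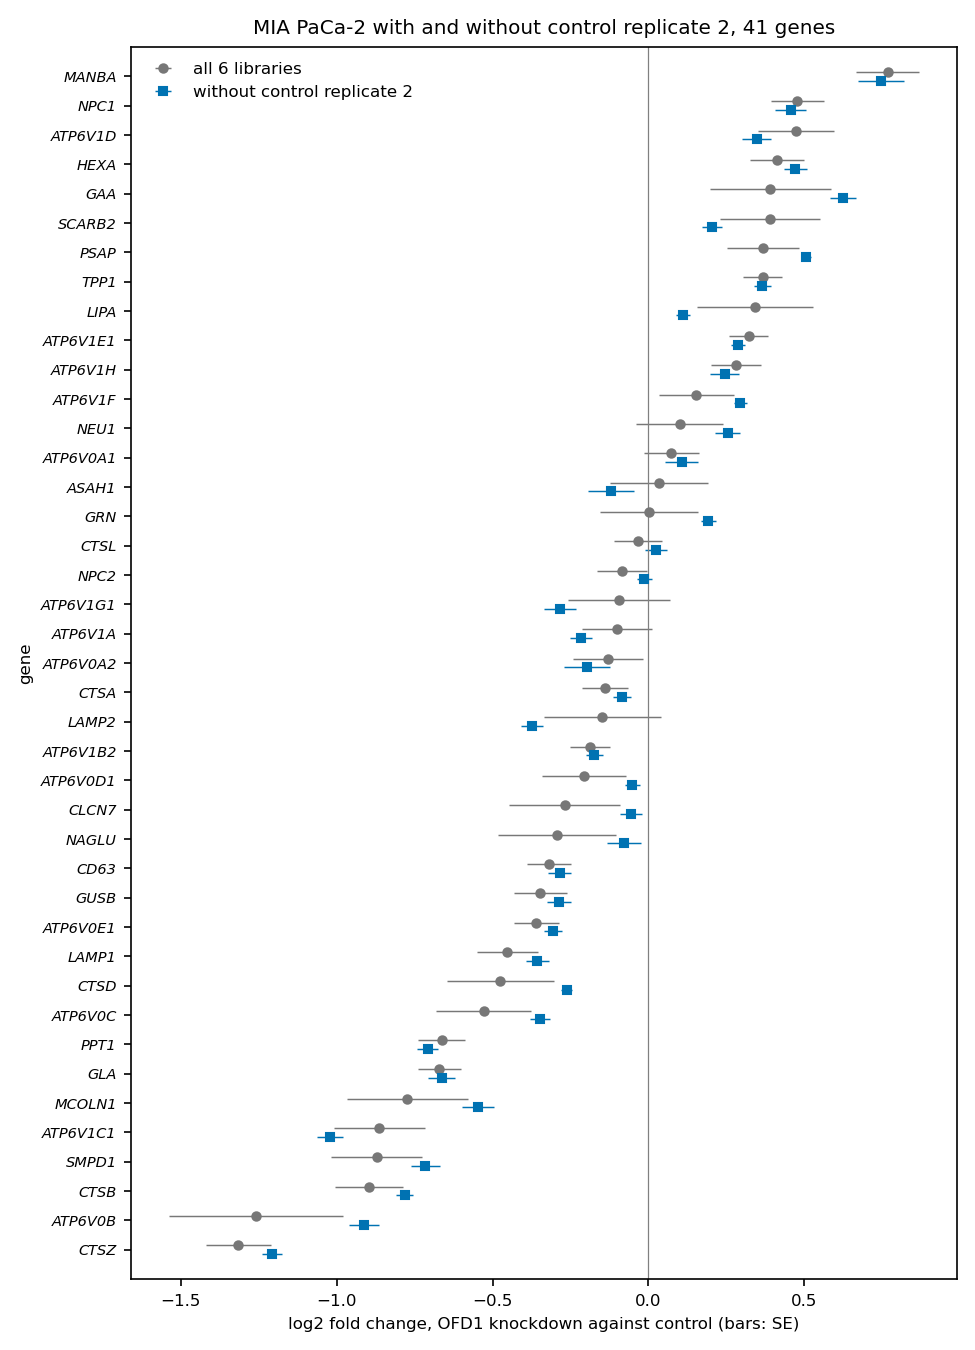
Log2 fold change with its SE for 41 lysosomal genes in MIA PaCa-2 (x axis; genes on the y axis), with all 6 libraries (grey circles) and without control replicate 2 (blue squares). The bars shrink without that library, ATP6V0B goes from −1.26 to −0.91 and ATP6V1C1 from −0.86 to −1.02, and the values of ASAH1 and CTSL, both near 0, change side.

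The control libraries of the lines also differed, and line and preparation cannot be told apart in this comparison. In controls of MIA PaCa-2 against PaTu 8988T, where transcript lengths behind the FPKM were the same for the 40 lysosomal genes compared, 3 were higher by more than 2-fold and 5 lower, beside 15.3% and 16.1% of 10694 genes (3 and 4 without control replicate 2). NPC1 differed most, at 8.11 to 8.53 FPKM in MIA PaCa-2 and 68.3 to 70.1 FPKM in PaTu 8988T, a log2 difference of −3.04 ± 0.07 (adjusted p = 1.84e-07 by limma). ASAH1 was lower in MIA PaCa-2 as well, at 5.02, 3.54 and 4.81 FPKM against 23.1, 24.6 and 22.5 FPKM (−2.38 ± 0.15, adjusted p = 1.26e-05). CD63 was at 64.3, 67.7 and 62.0 FPKM against 156, 149 and 161 FPKM (−1.26), SCARB2 at 19.5, 13.5 and 20.3 FPKM against 42.1, 42.2 and 40.4 FPKM (−1.25), and ATP6V1C1 at a log2 difference of −1.04, or −0.88 without control replicate 2.

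LIPA was the gene most above PaTu 8988T, at 203, 124 and 199.9 FPKM against 39.5, 40.4 and 37.4 FPKM (log2 difference 2.13 ± 0.19, adjusted p = 7.4e-05 by limma). ATP6V1F followed at 195, 263 and 197 FPKM against 74.8, 72.7 and 74.9 FPKM (1.54 ± 0.12), and SMPD1 at 10.3, 14.1 and 10.0 FPKM against 4.67, 4.48 and 4.82 FPKM (1.26 ± 0.15). No control library of one line overlapped those of the other for these genes. The 2 libraries of MIA PaCa-2 other than replicate 2 were close to each other in all 3. Levels in PANC-1 were not compared with the other lines, because transcript length behind the FPKM was the same as in PaTu 8988T for only 27 of the 42 lysosomal genes.

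**Figure D5:**
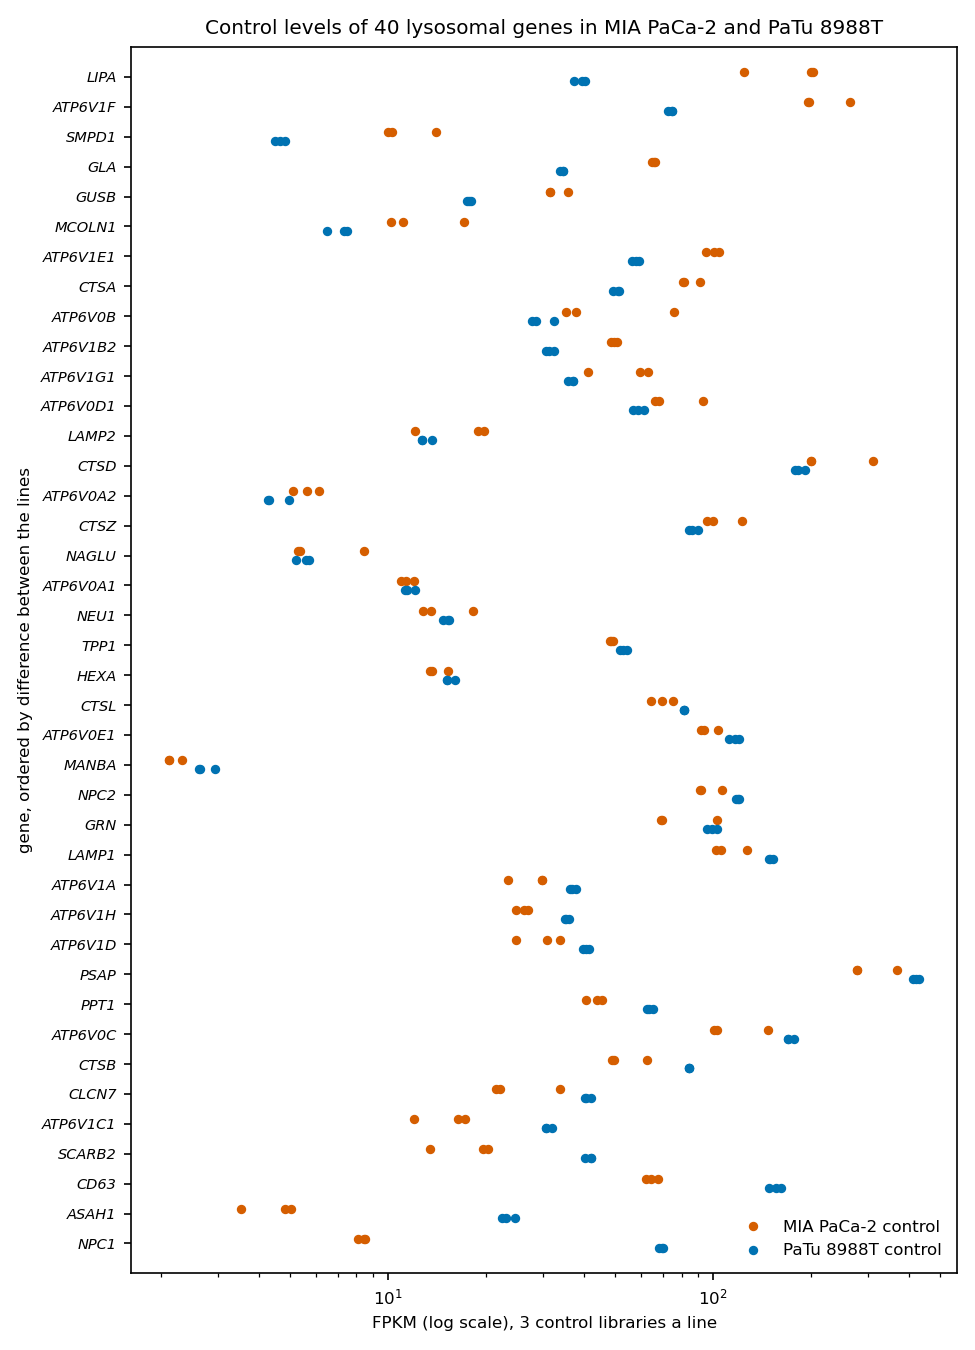
FPKM of 40 lysosomal genes in the 3 control libraries of MIA PaCa-2 (orange) and of PaTu 8988T (blue), on a log axis, with genes ordered by the difference between the lines. NPC1 and ASAH1 at the bottom are lower in MIA PaCa-2 and LIPA and ATP6V1F at the top are higher, and in between the points of many genes overlap or nearly do.

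The MiT/TFE factors that drive lysosomal genes were themselves measured. TFE3 was the most abundant of them, at 28.0 to 31.0 FPKM in PANC-1, 35.1 to 43.5 FPKM in MIA PaCa-2 and 64.2 to 70.7 FPKM in PaTu 8988T, and its log2 fold changes were 0.06, 0.14 (adjusted p = 0.286 by limma) and 0.07 (adjusted p = 0.119). TFEB was at 2.43 to 3.06 FPKM in PANC-1 controls and 1.93 to 2.14 FPKM after knockdown, and below the filter in the other lines (at most 0.903 and 1.04 FPKM). MITF was at 4.19, 5.05 and 4.68 FPKM against 5.81, 5.80 and 6.38 FPKM in PANC-1, rose in PaTu 8988T by 0.41 (adjusted p = 0.0267 by limma) at levels near the filter (0.839 to 1.36 FPKM), and was at most 0.491 FPKM in MIA PaCa-2. The filter takes the mean over both groups, so in PaTu 8988T the higher knockdown values could themselves have carried MITF past it, and nothing is read from this call. TFEC was listed at or near 0 throughout, with at most 3 reads in a library.

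Lysosomal genes with a TCACGTG match and those without were both found among the risen and the fallen. The median log2 fold change of the 10 with a match was −0.24 in MIA PaCa-2 and 0.00 in PaTu 8988T, and that of the 19 with a window but no match was −0.03 and −0.04. In PANC-1 these medians were −0.19 and 0.09. Both groups spanned 0 in each line: in PaTu 8988T 5 of the 10 and 8 of the 19 were positive, beside 54.8% of all genes. ATP6V0B and ATP6V0D1, whose windows are printed above, were at −1.26 and −0.21 in MIA PaCa-2, and CTSZ, with no match in its window, was at −1.32.

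Another 107 genes of the lysosome pathway in the table, from a list of 108, were read for comparison: other V-ATPase subunits, other hydrolases and membrane proteins, sorting factors and the MiT/TFE switch. In PaTu 8988T 9 of 96 rose and 27 fell, beside 20.9% and 18.5% of all genes. In MIA PaCa-2 12 of 90 rose and 19 fell, beside 18.7% and 21.7% of all genes (27 and 38, beside 35.1% and 40%, without control replicate 2). The other hydrolases gave 14 fallen and 1 risen of 31 in PaTu 8988T. The other V-ATPase genes gave 2 risen and 2 fallen of 14 in PaTu 8988T and 2 and 4 of 12 in MIA PaCa-2 (3 and 7 without control replicate 2). In MIA PaCa-2 and PaTu 8988T, GALC and MAN2B2 had lower log2 fold changes than any of the 41 lysosomal genes tested there. GALC, the galactosylceramidase, fell in MIA PaCa-2 from 3.76, 2.08 and 3.41 FPKM to 0.625, 0.881 and 0.840 FPKM (log2 fold change −1.82 ± 0.25, adjusted p = 0.00202 by limma) and in PaTu 8988T by 0.60 (adjusted p = 0.00013), and was at 11.4, 10.1 and 9.53 FPKM against 2.09, 1.81 and 1.48 FPKM in PANC-1 (−2.47). MAN2B2, an alpha-mannosidase, fell in MIA PaCa-2 by 1.69 (adjusted p = 0.000315) and in PaTu 8988T by 0.70 (adjusted p = 0.000101), and was at −1.76 in PANC-1. The sulphatases GALNS and ARSB were at −1.17 and −1.68 in PANC-1, and GALNS fell in MIA PaCa-2 by 0.53 (adjusted p = 0.0349) and in PaTu 8988T by 0.36 (adjusted p = 0.00107), while ARSB was at 0.02 in PaTu 8988T (adjusted p = 0.892). RRAGD, a GTPase that links amino acids to mTORC1 and is itself a MiT/TFE target, rose in MIA PaCa-2 from 10.4, 7.89 and 11.1 FPKM to 22.1, 23.1 and 22.5 FPKM (1.21 ± 0.14, adjusted p = 0.00108), and was at −0.08 in PaTu 8988T and 0.47 in PANC-1.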

How the data were processed

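The values are FPKM per gene as deposited by the authors, who aligned reads with HISAT2 and counted them with HTSeq-count. The labels name an RNeasy and SMARTer preparation and the study's methods TRIzol and a VAHTS kit, and the submitters' processing notes list the builds GRCm38, mm10 and hg38. FPKM steps gave back whole reads (within 0.01 of an integer) for 100% of genes above 0, against 96.5% to 97.4% of genes recovered exactly in simulated tables, and with them the depth (32486479 to 39797537 reads per library). Groups came from the titles. On log2(FPKM + 0.1), genes with a mean of at least 1 FPKM were tested with limma 3.58.1 (R 4.3.3; variance trend, two-sided, Benjamini-Hochberg over all genes of a comparison); changes of low genes are understated on this scale. Each line was fitted alone, and MIA PaCa-2 with PaTu 8988T for differences between them. A call is an adjusted p below 0.05, and the study's 2-fold limit is given beside it. The 42 genes and all lists were chosen with earlier results of these data known. All 42 have a fold change in the text; library values are given for ATP6V0D2, genes past 2-fold in any line and the 2 highest and 2 lowest per line, and for further genes (such as CTSB, SMPD1 and PSAP) after their values were seen. Of other pathway genes at most 5 per line past 2-fold are named. Alternatives were other pseudocounts and filters, median centring, no trend, library weights, a replicate block and leaving out each library, and, added after seeing the data, voom on the recovered reads and all MIA PaCa-2 values without control replicate 2. The fit was tested on simulated counts with the same spread for every gene and planted 2-fold changes. This did not cover an outlying library or smaller changes. Promoter windows came from RefSeq (GRCh38.p14) and positions from GENCODE (GRCh38).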

Additional observations from a re-analysis of the deposited data

Results flagged for a closer look

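The OFD1 knockdown changed 24 of 41 lysosomal genes to a different extent in MIA PaCa-2 and PaTu 8988T by a test of the difference itself (limma, adjusted p below 0.05): 9 had a higher change in MIA PaCa-2 and 15 a lower one, beside 20.1% and 24.4% of all genes. Past 2-fold these were ATP6V0B (−1.39 on the log2 scale, MIA PaCa-2 minus PaTu 8988T), CTSZ (−1.17), SMPD1 (−1.16) and MANBA (1.24). All 4 kept this direction and a call without MIA PaCa-2 control replicate 2 (−1.04, −1.06, −1.01 and 1.22).

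In other genes every knockdown library lay on one side of the controls in PANC-1 and on the opposite side in another line. The share of all genes with this pattern was not counted, so nothing is read from the number of genes named here. The difference was not tested for these genes, since PANC-1 was used to select the module. The values given are the PANC-1 log2 fold change minus that of the other line. Against MIA PaCa-2 the differences of pump genes were 0.67 for ATP6V0C, 0.43 for ATP6V0D1, 0.61 for ATP6V0E1 and 0.44 for ATP6V1B2. Those of membrane proteins were 0.39 for CD63, 0.50 for CLCN7, −1.10 for NPC1 and −0.74 for SCARB2, and that of HEXA was −0.58. Without MIA PaCa-2 control replicate 2 the differences of ATP6V0D1 and CLCN7 were 0.27 and 0.29, and those of the other 7 genes moved by less than 1.5 times. Against PaTu 8988T the differences were 0.76 for CTSL, 0.51 for TPP1, 0.80 for MANBA, −0.81 for SMPD1, 0.58 for PSAP, 0.31 for GRN and 0.28 for NPC2.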

How the results depend on the processing

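None of the calls on lysosomal genes in MIA PaCa-2, PaTu 8988T or between them changed direction under any alternative run. Of 21 MIA PaCa-2 calls 10 held under every one, of 29 PaTu 8988T calls 20, of 24 differences between the lines 21 (not ATP6V1E1, CTSL and GAA) and of 29 differences in control level 24. The number called in MIA PaCa-2 (21) was 34 with library weights and 11 to 34 when each library was left out in turn, 34 being without control replicate 2. The number past 2-fold there (2) was 1 to 2, with 1 without knockdown replicate 1. Without control replicate 2, ATP6V1C1 took the place of ATP6V0B among these 2. The other counts stayed within 1.5 times their value, at 22 to 32 in PaTu 8988T under the alternatives that keep all libraries. Voom on the recovered reads, added after seeing the data, called 21 and 30 in MIA PaCa-2 and PaTu 8988T. The replicate numbers showed no clear pairing of the samples, although 3 libraries a group cannot exclude one. Over 9 same-numbered pairs the correlation of deviations was −0.11 to 0.13 and exceeded 0.1 in 1. With a replicate block 18 and 28 lysosomal genes were called in MIA PaCa-2 and PaTu 8988T instead of 21 and 29. The OFD1 call in MIA PaCa-2 was lost with no filter (adjusted p = 0.0504). ATP6V0D2 was hardly detected in PaTu 8988T, so no change could be measured there, and 3 libraries a group limit what small changes can be called. The cause of these shifts was not tested.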

Other observations

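The factors that sort lysosomal enzymes were read from a list of 13. In MIA PaCa-2 1 of 12 rose and 4 fell, beside 18.7% and 21.7% of all genes (4 and 7, beside 35.1% and 40%, without control replicate 2). In PaTu 8988T 2 of 13 rose and 2 fell, beside 20.9% and 18.5% of all genes. NAGPA, the enzyme that uncovers the mannose phosphate tag, fell in MIA PaCa-2 from 6.39, 10.5 and 7.72 FPKM to 2.02, 1.87 and 2.32 FPKM (log2 fold change −1.91 ± 0.20, adjusted p = 0.000752 by limma) and in PaTu 8988T by 0.38 (adjusted p = 0.00176), and was at −1.39 in PANC-1. Among 23 other lysosomal membrane proteins, 1 of 22 rose and 1 fell in MIA PaCa-2 (5 and 9 without control replicate 2) and 2 of 22 rose and 8 fell in PaTu 8988T. The 1 that fell in MIA PaCa-2 with all libraries was SLC36A1, a proton-coupled amino acid exporter of the lysosome. It went from 1.46, 1.59 and 1.73 FPKM to 0.545, 0.419 and 0.526 FPKM (−1.51 ± 0.15, adjusted p = 0.000629 by limma). Its level there was near the filter of 1 FPKM, which only its control libraries exceeded. In PaTu 8988T it rose by 0.26 (adjusted p = 0.0392).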
